A study of Mus musculus with 11 samples.

Results

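Gangliosides are glycolipids made of a ceramide anchor and a sugar chain that carries sialic acid. The genes described here are 8 that make, cut or present these lipids, namely *Ugcg*, *B4galt5*, *St3gal5*, *Hexa*, *Glb1*, *Neu1*, *Gm2a* and *Psap*. They were taken by name from the count table of a study of tumor dendritic cells. All 8 were among the 24421 genes of that table, and all 8 passed the filter on low counts that left 10951 genes for testing. The study lists *St3gal5* and *Gm2a* among targets of IRE1-dependent decay with lower levels in these same pools, so their direction here is not independent evidence.

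The measurements are RNA-seq counts from 11 pools of conventional type 1 dendritic cells (cDC1s) sorted from B16-F10 melanoma tumors, with 5000 to 20000 cells from 2 to 4 mice in a pool. The mice were C57BL/6, of both sexes and 6 to 14 weeks old, and all of them carried Xbp1 fl/fl alleles. Control pools 1 to 3 came from Xbp1 fl/fl mice and control pool 4 from Xbp1 fl/fl Ern1 fl/fl mice, in each case with no Cre. The 4 XBP1ΔDC pools carried Xbp1 fl/fl and Itgax-Cre, which deletes in cells that express CD11c and so not in cDC1s alone. The 3 XBP1ΔDCIRE1truncDC pools carried Itgax-Cre with both Xbp1 fl/fl and Ern1 fl/fl, where the recombined *Ern1* gives an IRE1 protein without its RNase domain.

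Ganglioside synthesis runs along the Golgi membranes. *Ugcg* encodes the glucosyltransferase that starts the chain on ceramide, *B4galt5* encodes a galactosyltransferase that makes lactosylceramide, and *St3gal5* encodes GM3 synthase, which adds the first sialic acid and opens the route to the gangliosides. Breakdown takes place in the lysosome, where exoenzymes remove the sugars in turn. *Glb1* encodes beta-galactosidase, *Hexa* encodes the alpha subunit of beta-hexosaminidase, and *Neu1* encodes a sialidase. *Gm2a* encodes the activator that lifts GM2 out of the membrane for beta-hexosaminidase A, and *Psap* encodes the precursor of the saposins, which present other glycosphingolipids to their hydrolases. IRE1 is the sensor of the endoplasmic reticulum that splices *Xbp1* mRNA, and in regulated IRE1-dependent decay (RIDD) its RNase cuts other transcripts. Its best known cut sites lie in a small loop held by a stem, with the letters CNGCAGN in the loop.

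Because the genotypes act on this RNase, the loop letters were searched in the transcripts. The sites are shown to let a reader see what a match in these genes looks like beside the known sites of *Xbp1*. Each line runs 5′ to 3′ along the transcript, with the 7 loop bases in capitals and 11 bases on each side. For *Psap* and *B4galt5*, the occurrence with the most stem pairs is shown. Sequences are from GENCODE vM21 on GRCm38.
Xbp1, loop at chr11:5524276-5524282, exon 4 of 5, plus strand, 6 stem pairs: gtctgctgagtCCGCAGCactcagactat
Xbp1, loop at chr11:5524302-5524308, exon 4 of 5, plus strand, 7 stem pairs: tatgtgcacctCTGCAGCaggtgcaggcc
Gm2a, letters at chr11:55103639-55103645, exon 2 of 4, plus strand, 1 pair: aggaaaggaccCTGCAGTgatcaaaagcc
Psap, letters at chr10:60300272-60300278, exon 12 of 15, plus strand, 3 pairs: cttgagaagggCTGCAGCttcctgccaga
B4galt5, letters at chr2:167313124-167313130, exon 2 of 9, minus strand, 3 pairs: gagcaggtggtCCGCAGCgcctatgccaa

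The letters CNGCAGN on the sense strand occurred in the coding sequence of 7 of the 8 genes, and of 89.9% of the 10309 tested genes with a coding sequence. The exception was *St3gal5*, with no occurrence in 1242 coding bases. *Gm2a* had 1 occurrence in 579 coding bases, while *Psap*, *Neu1* and *B4galt5* had 4 each. The shorter string CTGCAG, which overlaps the first, was found in 6 of the 8 genes and in 71.49% of all. When the loop also had to be closed by at least 4 base pairs (G-U pairs allowed), a rule added after the letters had been counted, no site remained anywhere in the transcript of any of the 8 genes. Of all tested genes with a coding sequence, 13.84% had such a site in the transcript. A missing match says only that these letters with this stem are not in the transcript model searched.

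The count totals were 21089065 to 26843486 per pool, and the 50 most abundant genes took 23.0% to 25.4% of a pool's counts. The sorted cells carried all 9 cDC1 markers searched, with *Xcr1* at 846 and *Clec9a* at 140 CPM on average in controls, while the B cell and neutrophil markers summed to 2 CPM or less in every pool. Markers of cDC2s summed to 22.9 to 68.1 CPM over all pools, and those of T cells to 7.34 to 15.6 CPM, most of it *Cd8a*, which cDC1s express too. CPM here is the read count scaled to library size with factors from the trimmed mean of M-values (TMM). *Xbp1* was at 244 to 271 CPM in control, 130 to 165 in XBP1ΔDC and 179 to 236 in XBP1ΔDCIRE1truncDC pools, and counts per gene do not show whether a transcript lacks the floxed exon. *Ern1* was at 9.82 to 19.0, 9.74 to 15.6 and 17.0 to 26.0 CPM in the same order. Every gene was tested in a single fit of the 3 groups with edgeR's quasi-likelihood test. Here a gene is called when its Benjamini-Hochberg adjusted p over the 10951 genes is under 0.05, and a differentially expressed gene (DEG) also has a fold change above 1.5.

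In control tumor cDC1s the activators were far more abundant than the enzymes. Per kilobase of exon, which makes levels comparable between genes, *Psap* was at 5484 ± 334 CPM (SD, n = 4), a level above 99.94% of the 10540 genes with a known length. *Gm2a* followed with 938 ± 57.3 CPM per kilobase, then *Hexa* with 183 ± 14.4 and *St3gal5* with 113 ± 3.86. *Psap* ranked 6th by counts in every one of the 11 pools and took 1.10% to 1.64% of all counts. *B4galt5* at 12.6 ± 0.944 and *Glb1* at 12.0 ± 0.204 CPM per kilobase did not differ beyond their spread, nor did *Ugcg* at 8.81 ± 0.974 and *Neu1* at 6.52 ± 1.67. Among the synthesis genes of these 8, the transcript of the sialyltransferase *St3gal5* was thus the most abundant per length. Among the breakdown genes of these 8, the activators stood above the hydrolases. The order of the first 4 genes was the same in the XBP1ΔDC and the XBP1ΔDCIRE1truncDC pools, with means of 4326, 573, 166 and 75.8 CPM per kilobase in XBP1ΔDC and 4438, 749, 158 and 99.5 in XBP1ΔDCIRE1truncDC.

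**Figure D1:**
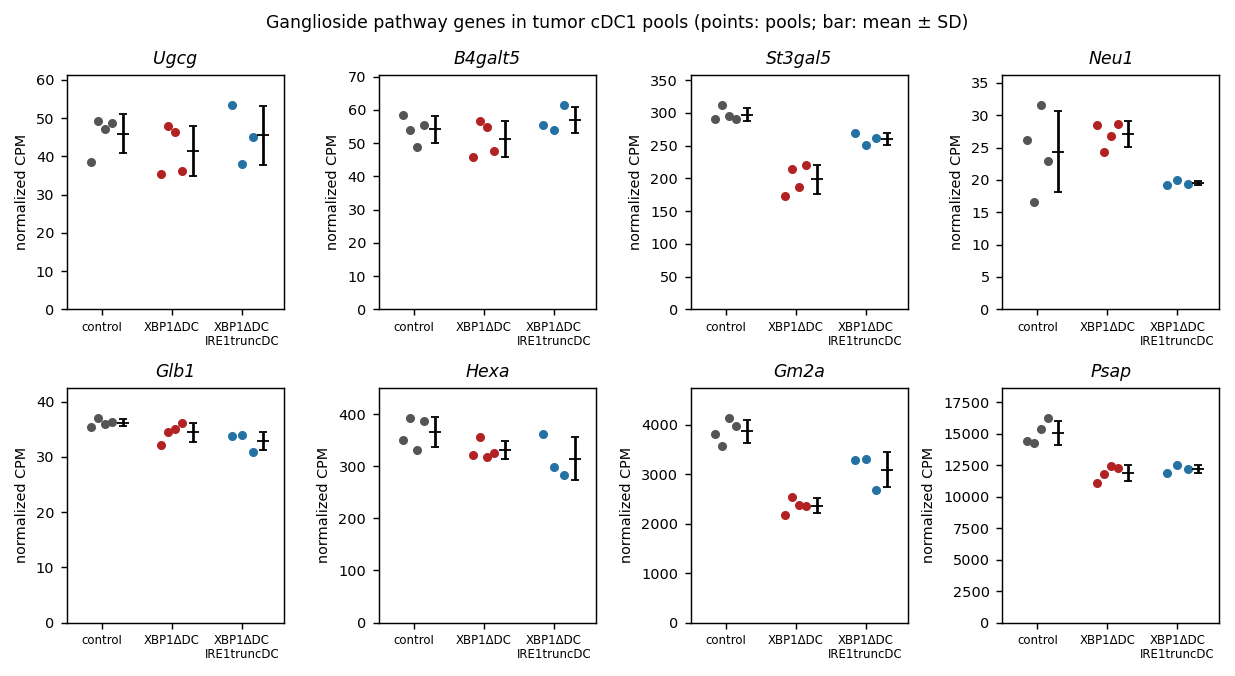
Normalized CPM (y axis, linear and starting at 0) of the 8 genes in the 4 control, 4 XBP1ΔDC and 3 XBP1ΔDCIRE1truncDC pools. Each point is a pool and the bar is the group mean ± SD. The XBP1ΔDC pools of St3gal5 (173 to 220), Gm2a (2180 to 2548) and Psap (11047 to 12405) all lie below the control pools.

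The comparison of XBP1ΔDC with control cDC1s asks what loss of XBP1 does while the IRE1 RNase remains. *St3gal5*, *Gm2a* and *Psap* fell, and the other 5 genes were not called. These 3 of 8 genes stand against 0.858% of all genes tested that were called and lower in this comparison. The study had listed *St3gal5* and *Gm2a* as lower in these same pools, so for them this share and the median below are not independent evidence. *Gm2a* alone was also a DEG, where 0.466% of all genes tested were lower DEGs. *St3gal5* lay at the edge of the fold limit and passed it in 7 of 23 other settings, while *Gm2a* passed in 23 of 23. The median log2 fold change of the 8 genes was -0.15, beside 0.00500 over all genes tested.

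Among the synthesis genes, *St3gal5* was at 290, 312, 295 and 291 CPM in control pools 1 to 4, and at 173, 214, 186 and 220 CPM in XBP1ΔDC pools 1 to 4. The highest XBP1ΔDC pool lay below the lowest control pool. Its transcript fell by 33.2%, a log2 fold change of -0.58 (standard error 0.0810, 95% interval -0.76 to -0.41, edgeR adjusted p = 0.00286). *Ugcg* was at 38.4, 49.3, 47.3 and 48.7 CPM in control and 35.5, 47.8, 46.4 and 36.1 in XBP1ΔDC pools. Its groups overlapped, and the log2 fold change was -0.15 (95% interval -0.45 to 0.15, edgeR adjusted p = 0.932). It was -0.22 without control pool 1 or XBP1ΔDC pool 2, and -0.080 and -0.085 without XBP1ΔDC pools 1 and 4. *B4galt5* was at 58.5, 53.9, 48.7 and 55.4 CPM in control and 45.9, 56.8, 54.8 and 47.6 in XBP1ΔDC pools, which also overlapped (log2 fold change -0.08, 95% interval -0.29 to 0.13, edgeR adjusted p = 0.950). It was -0.029, -0.042 and -0.039 without XBP1ΔDC pools 1 and 4 and control pool 1, and -0.13 without control pool 3 or XBP1ΔDC pool 2. Counted per *B4galt5* read, *St3gal5* had 5.51 ± 0.496 reads in control (n = 4) and 3.89 ± 0.515 in XBP1ΔDC pools (n = 4), given as a description. Per *Ugcg* read it had 6.53 ± 0.707 (5.97 to 7.56) and 4.86 ± 0.886 (4.02 to 6.09), and these groups overlapped. The called fall among the synthesis genes was thus that of the sialyltransferase, and the intervals of both enzymes upstream of it include 0.

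Among the activators, *Gm2a* was at 3815, 3574, 4130 and 3967 CPM in control pools and at 2180, 2548, 2369 and 2364 CPM in XBP1ΔDC pools. The highest XBP1ΔDC pool (2548 CPM) lay far below the lowest control pool (3574 CPM). The transcript of the GM2 activator fell by 38.9% (log2 fold change -0.71, standard error 0.0782, 95% interval -0.88 to -0.54, edgeR adjusted p = 5.08e-04), the 14th smallest p of all genes tested. *Psap* was at 14396, 14233, 15360 and 16204 CPM in control pools and at 11047, 11783, 12405 and 12244 CPM in XBP1ΔDC pools, again with no overlap. It fell by 21.1% (log2 fold change -0.34, standard error 0.0552, 95% interval -0.46 to -0.22, edgeR adjusted p = 0.00832).

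The hydrolases did not pass the test. *Hexa* was at 351, 392, 332 and 386 CPM in control and 322, 357, 318 and 325 CPM in XBP1ΔDC pools, with XBP1ΔDC pool 2 inside the control range (log2 fold change -0.14, 95% interval -0.33 to 0.05, edgeR adjusted p = 0.799). *Glb1* was at 35.5, 37.0, 36.0 and 36.3 CPM in control and 32.1, 34.5, 35.1 and 36.1 CPM in XBP1ΔDC pools (log2 fold change -0.07, 95% interval -0.25 to 0.11, edgeR adjusted p = 0.949), and its difference was -0.039 without XBP1ΔDC pool 1. *Neu1* was at 26.2, 16.6, 31.6 and 23.0 CPM in control and 28.5, 24.3, 26.8 and 28.7 CPM in XBP1ΔDC pools (log2 fold change 0.15, 95% interval -0.20 to 0.50, edgeR adjusted p = 0.944). This value rested on single pools, at 0.0087 without control pool 2 and 0.31 without control pool 3. The control pools of *Neu1* spread more than those of any other of the 8 genes, with a coefficient of variation of 25.6%. *Gm2a* reads per *Hexa* read, the activator over a subunit of the enzyme it serves, numbered 10.7 ± 1.38 in control (9.12 to 12.4) and 7.15 ± 0.289 in XBP1ΔDC pools (6.76 to 7.44). Reads of *Hexa* overlap the antisense gene *Tmem202* in 255 bases, where *Tmem202* had at most 33 counts in a pool, and *Glb1* shares 165 bases with *Tmppe* on the same strand, with 316 to 698 counts.

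By counts of genes, the pools did not overlap and were lower in XBP1ΔDC for *St3gal5*, *Gm2a* and *Psap*, against 3.67% of all genes tested. The same 3 had an unadjusted p under 0.05 and a lower level, against 4.95% of all. Both shares carry the limit given above for *St3gal5* and *Gm2a*, whose lower level was known from the study. The sum of the 9 cDC1 markers moved with the groups as well, from 12197 to 13584 CPM in control to 10174 to 11601 in XBP1ΔDC and 11039 to 12065 in XBP1ΔDCIRE1truncDC pools. Most of that lay in *Naaa*, which encodes a lysosomal acid amidase, at a mean of 4141 CPM in control, 2905 in XBP1ΔDC and 3298 in XBP1ΔDCIRE1truncDC. *Naaa* was called in XBP1ΔDC (log2 fold change -0.51, edgeR adjusted p = 4.95e-04) and in XBP1ΔDCIRE1truncDC (-0.33, edgeR adjusted p = 0.0396), the latter in 8 of 23 other settings. In XBP1ΔDC against control, *Itgae* was at -0.26 (unadjusted p = 0.00530, edgeR adjusted p = 0.254), *Tlr3*, *Wdfy4*, *Cadm1* and *Irf8* were at -0.18 to -0.06, and *Xcr1*, *Clec9a* and *Batf3* at 0.01 to 0.02, none of them called. The part of this marker difference in the results was not tested. Macrophage markers (8 of 9 tested) summed to 23.8 to 56.4 CPM in control and 31.3 to 115 in XBP1ΔDC pools, with *Mertk* at 0 in XBP1ΔDC, and melanoma markers (3 of 6 tested) to 8.22 to 59.1 and 11.2 to 63.3 CPM. With the macrophage markers as a covariate, *St3gal5* had a log2 fold change of -0.58 and was still called. In bulk pools, fewer cells of a type and less RNA per cell cannot be told apart.

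**Figure D2:**
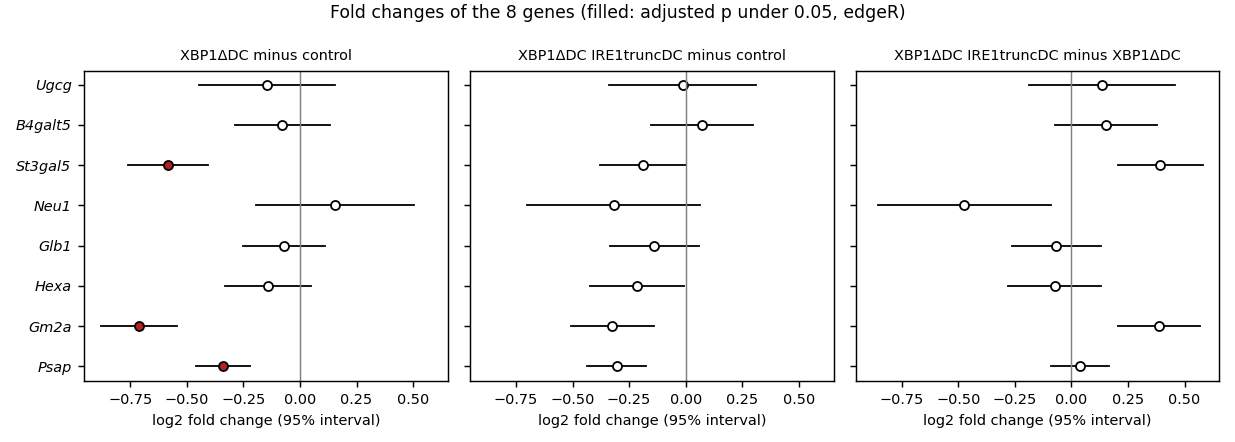
Log2 fold change with its 95% interval (x axis) of the 8 genes in the 3 comparisons, with synthesis genes at the top, hydrolases in the middle and activators at the bottom. Filled points had an adjusted p under 0.05 in edgeR's test, which holds for St3gal5, Gm2a and Psap in XBP1ΔDC minus control and for no gene in the other panels.

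The comparison of XBP1ΔDCIRE1truncDC with control cDC1s asks what remains when the RNase is lost together with XBP1. None of the 8 genes was called by edgeR, where 0.292% of all genes tested were called and lower. At an unadjusted p under 0.05, *St3gal5*, *Gm2a*, *Psap* and *Hexa* were lower, against 5.44% of all genes, and DESeq2 called *Psap*. For *St3gal5* that p was at the edge, 0.0498 from edgeR. Other settings fell on both sides, as 0.0298 with upper-quartile factors and 0.109 with a replicate block in edgeR. The pools of *St3gal5*, *Gm2a*, *Psap* and *Glb1* did not overlap and were lower than control, against 5.81% of all. The median log2 fold change of the 8 genes was -0.20, beside -0.00313 over all genes tested. The 4 control pools are the same as in the comparison above, so the 2 comparisons are not independent.

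*Psap* was at 11851, 12479 and 12206 CPM in XBP1ΔDCIRE1truncDC pools 1 to 3, below all control pools. Pools 1 and 3 lay inside the range of the XBP1ΔDC pools and pool 2 above it. Its log2 fold change against control was -0.31 (standard error 0.0599, 95% interval -0.43 to -0.18, edgeR adjusted p = 0.0543), just over the threshold. *Gm2a* was at 3289, 3305 and 2682 CPM, each pool below control and above every XBP1ΔDC pool. Its log2 fold change against control was -0.32 (standard error 0.0845, 95% interval -0.51 to -0.14, edgeR adjusted p = 0.161), and without XBP1ΔDCIRE1truncDC pool 3 it was -0.23. *St3gal5* was at 269, 250 and 262 CPM, also between the other 2 groups, with a log2 fold change of -0.19 against control (standard error 0.0874, 95% interval -0.38 to -0.00017, edgeR adjusted p = 0.446).

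Of the other genes, *Hexa* was at 361, 298 and 284 CPM and had a log2 fold change of -0.22 against control (95% interval -0.42 to -0.01, edgeR adjusted p = 0.416), which was -0.33 without XBP1ΔDCIRE1truncDC pool 1 (edgeR adjusted p = 0.206). *Glb1* was at 33.7, 34.0 and 30.9 CPM (log2 fold change -0.14, edgeR adjusted p = 0.640), below every control pool by a small margin. *Neu1* was at 19.2, 19.9 and 19.4 CPM, inside the wide control range (log2 fold change -0.32, 95% interval -0.70 to 0.06, edgeR adjusted p = 0.550). It was -0.17 without control pool 3 and -0.13 with melanoma markers as a covariate. *Ugcg* at 53.4, 38.0 and 45.1 CPM and *B4galt5* at 55.5, 53.9 and 61.4 CPM overlapped the control pools, with log2 fold changes of -0.01 and 0.07, and both signs turned under other settings. Melanoma markers summed to 6.30 to 8.76 CPM in XBP1ΔDCIRE1truncDC pools. That range overlapped control pool 2 (8.22 CPM) and lay below control pools 1, 3 and 4 (10.7, 52.5 and 59.1 CPM). *Dct*, *Pmel* and *Tyrp1* had log2 fold changes of -2.45, -1.99 and -1.74 against control, none of them called. With melanoma markers as a covariate, *Psap* had a log2 fold change of -0.22 (edgeR adjusted p = 0.248).

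The direct comparison of XBP1ΔDCIRE1truncDC with XBP1ΔDC cDC1s sets a cell without XBP1 and without the RNase against a cell without XBP1 alone. *St3gal5* and *Gm2a* were higher in all 3 XBP1ΔDCIRE1truncDC pools than in any XBP1ΔDC pool, but edgeR called neither, nor any other of the 8 genes. Over all genes tested, 0.0731% were called and higher. The log2 fold change of *St3gal5* was 0.39 (standard error 0.0868, 95% interval 0.21 to 0.58, unadjusted p = 6.04e-04 and edgeR adjusted p = 0.200), a level 31.3% higher. That of *Gm2a* was 0.39 (standard error 0.0836, 95% interval 0.21 to 0.57, unadjusted p = 5.07e-04 and edgeR adjusted p = 0.197), a level 30.7% higher. DESeq2 called both, with adjusted p of 0.00948 and 0.0148. Both had an unadjusted p under 0.05 and a higher level, against 2.79% of all genes, and both had pools that did not overlap, against 3.11% of all. The study names both as lower in XBP1ΔDC but not in XBP1ΔDCIRE1truncDC cDC1s, so these shares are not independent evidence. The XBP1ΔDC pools are also those in which both genes were called lower than control. Melanoma markers moved with these groups as well, at 6.30 to 8.76 CPM in XBP1ΔDCIRE1truncDC and 11.2 to 63.3 CPM in XBP1ΔDC pools. *Dct*, *Tyrp1* and *Pmel* had log2 fold changes of -2.31, -1.84 and -1.55, none of them called. Over the 23 other settings, *St3gal5* ran from 0.33 to 0.45 and *Gm2a* from 0.33 to 0.48. The part of this marker difference in the 2 genes was not tested.

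The estimate of *Psap* was nearer to 0 in this comparison. Its pools overlapped and its log2 fold change was 0.04 (95% interval -0.09 to 0.17, edgeR adjusted p = 0.993), an interval that does not reach the estimates of *St3gal5* and *Gm2a*. It was 0.0041 without XBP1ΔDC pool 1 and 0.12 with melanoma markers as a covariate. *Gm2a* reads as a percentage of *Psap* reads were 25.7% ± 1.14 in control (n = 4), 19.9% ± 1.16 in XBP1ΔDC (n = 4) and 25.4% ± 3.04 in XBP1ΔDCIRE1truncDC pools (n = 3). The groups of this ratio overlapped between control and XBP1ΔDCIRE1truncDC (24.5% to 26.9% and 22.0% to 27.8%), and XBP1ΔDC lay below both (19.1% to 21.6%). *Gm2a* reads per *Hexa* read came to 9.88 ± 1.05 in XBP1ΔDCIRE1truncDC pools (9.10 to 11.1), above the XBP1ΔDC range.

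*Neu1* was at 19.2 to 19.9 CPM in XBP1ΔDCIRE1truncDC and 24.3 to 28.7 CPM in XBP1ΔDC pools. Its log2 fold change was -0.47 (standard error 0.177, 95% interval -0.86 to -0.09, unadjusted p = 0.0195 and edgeR adjusted p = 0.822), which did not pass, and with melanoma markers as a covariate it was -0.30. It was the only gene of the 8 with an unadjusted p under 0.05 and a lower level, against 2.5% of all genes tested, and the only one with lower pools that did not overlap, against 2.96%. *Hexa* (-0.07), *Glb1* (-0.07), *Ugcg* (0.13) and *B4galt5* (0.15) had overlapping pools and adjusted p of 0.967 or more from edgeR. With 1 pool left out at a time, these ran from -0.18 to -0.0035, -0.099 to -0.025, 0.0037 to 0.25 and 0.093 to 0.21, with XBP1ΔDCIRE1truncDC pools 1, 2 and 3 and XBP1ΔDC pools 1 and 2 at the ends. The median of the 8 log2 fold changes was 0.09, beside 0.00150 over all genes tested.

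**Figure D3:**
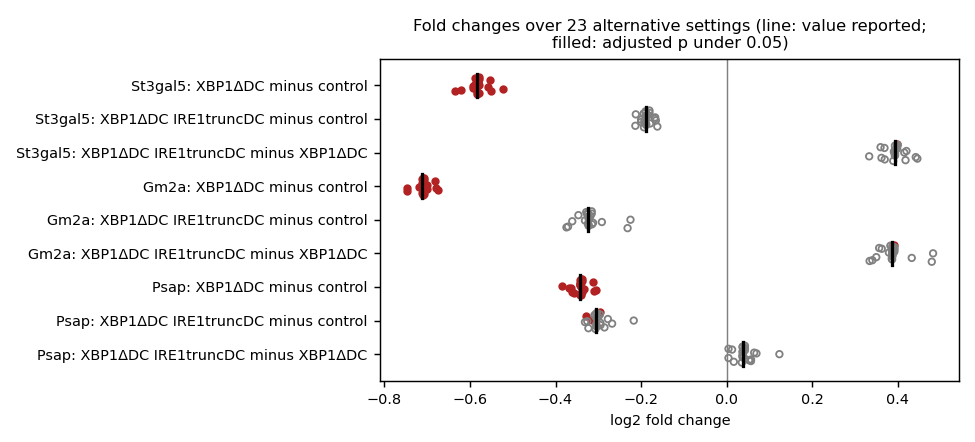
Log2 fold change (x axis) of St3gal5, Gm2a and Psap in each comparison under 23 other settings (points) and in the reported fit (vertical line). Filled points had an adjusted p under 0.05. In XBP1ΔDC minus control the 3 genes were called in 23 of 23 settings, with ranges of -0.63 to -0.52, -0.75 to -0.67 and -0.38 to -0.31.

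The genes whose level followed *Gm2a* and *St3gal5* most closely over the 11 pools are given as a description, since the pools share their groups. For *Gm2a* these were *Erp44* (Pearson's r = 0.968, Spearman's rho = 0.918), which encodes a thioredoxin-family protein of the early secretory pathway, *Xbp1* itself (r = 0.967, rho = 0.945) and *Mlec*, which encodes the glucose-binding protein malectin of the endoplasmic reticulum (r = 0.940, rho = 0.936). For *St3gal5* they were *Dpy19l1* (r = 0.951, rho = 0.891), *Ncln*, which encodes nicalin (r = 0.947, rho = 0.800), and *Mlec* (r = 0.944, rho = 0.936). *Xbp1* is the floxed gene itself, and the study lists *Erp44* and *Mlec* beside *Gm2a* and *St3gal5* among RIDD targets lower in XBP1ΔDC cDC1s. *Gm2a* and *St3gal5* followed each other with r = 0.908 (rho = 0.891), and after the group means had been taken out the correlation was 0.23. *Psap* followed *Gm2a* with r = 0.852, and with 0.41 once the group means were out. *Neu1* had r = -0.22 with *Gm2a* and -0.44 with *St3gal5*, which came to 0.30 and -0.30 without the group means.

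*Gm2a* lies at chr11:55098115-55113029 on the plus strand of GRCm38, between *Xbp1* (chr11:5520659-5525893) and *Ern1* (chr11:106394650-106487852) on the chromosome that carries both floxed alleles. *St3gal5* lies on chromosome 6 (chr6:72097592-72154571, plus strand), *Psap* on chromosome 10 (chr10:60277627-60302597, plus strand) and *Neu1* on chromosome 17 (chr17:34931253-34935953, plus strand). *Hexa* (chr9:59539540-59565109) and *Glb1* (chr9:114401076-114474898) lie on the plus strand of chromosome 9, *Ugcg* on that of chromosome 4 (chr4:59189257-59222833) and *B4galt5* on the minus strand of chromosome 2 (chr2:167298444-167349183).

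Start sites were searched for letters bound by factors of lysosomal and stress genes, in RefSeq windows of GRCm38.p6 that run from 250 bases before to 50 bases after a start. All 8 genes had a window, *Psap* with 2. The letters CACGTG were found in *Glb1* alone, 48 bases before its start, and in 10.08% of 10776 windows. The site is shown with the 6 letters in capitals, at chr9:114401030-114401035 on the plus strand.
Glb1, promoter: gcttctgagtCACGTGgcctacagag
On both strands, the longer TCACGTGA (1.921% of windows, overlapping CACGTG), the string TGACGTGG (0.8723%) and the endoplasmic reticulum stress element (CCAAT, any 9 bases, CCACG, in 0.1206%) were in none of the windows of the 8 genes. None of this bears on whether a factor binds outside these windows.

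Around these 8 genes, 58 others of the same pathway, which are not all of its genes, were counted, and 50 of them were tested. edgeR called 0 of these 50 in each of the 3 comparisons. In XBP1ΔDC against control, 3 had an unadjusted p under 0.05, all lower, and DESeq2 called *Igf2r*. In XBP1ΔDCIRE1truncDC against control, 3 were lower and 1 higher at that level, and DESeq2 called none. In the direct comparison 0 had an unadjusted p under 0.05, and DESeq2 called none. Over all genes tested, the shares that were lower at that level were 4.95%, 5.44% and 2.5%, and 5.73% were higher in XBP1ΔDCIRE1truncDC against control.

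The other synthesis genes held 11 tested members with a median log2 fold change of 0.09 in XBP1ΔDC against control and none under an unadjusted p of 0.05. *B4galnt1*, the enzyme that turns GM3 into GM2 and was named after its values were seen, was at 224 ± 11.4 CPM in control (n = 4) and 225 ± 22.5 CPM in XBP1ΔDC pools (n = 4). *St8sia1*, which encodes GD3 synthase, was much lower at 3.53 ± 1.40 CPM in control and 5.71 ± 2.79 CPM in XBP1ΔDC pools. *Gltp*, which encodes a glycolipid transfer protein, was at 716 ± 29.8 CPM and 667 ± 16.7 CPM. The 12 tested genes of ceramide and sphingomyelin had a median of -0.04 with log2 fold changes of -0.13 to 0.43, and the 8 of sialic acid and nucleotide sugar supply a median of -0.02. In the latter list *Gne*, which encodes the enzyme that starts sialic acid synthesis, was the gene that was higher at an unadjusted p under 0.05 in XBP1ΔDCIRE1truncDC against control, with a log2 fold change of 0.28 that did not pass (edgeR adjusted p = 0.382).

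The 13 breakdown genes, all tested, had a median of -0.10 in XBP1ΔDC and -0.15 in XBP1ΔDCIRE1truncDC against control, with 9 and 10 of them lower. The genes under an unadjusted p of 0.05 were *Asah1* and *Smpd1* in both comparisons, which share their control pools.

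*Asah1*, which encodes acid ceramidase, was at 514, 525, 515 and 496 CPM in control, 456, 468, 444 and 491 in XBP1ΔDC and 421, 462 and 438 in XBP1ΔDCIRE1truncDC pools. Both lines lay below all control pools, with log2 fold changes of -0.14 (edgeR adjusted p = 0.602) and -0.22 (edgeR adjusted p = 0.218). *Smpd1*, which encodes acid sphingomyelinase, had log2 fold changes of -0.34 and -0.38 against control with overlapping pools (edgeR adjusted p = 0.632 and 0.394). Without control pool 1 the first was -0.19 with an unadjusted p of 0.174 from edgeR, and with macrophage markers as a covariate it was -0.22. The second was -0.24 without control pool 1. *Ctsa*, whose product cathepsin A holds *Neu1* and *Glb1* proteins in a complex, was at -0.07 and -0.22 (edgeR adjusted p = 0.957 and 0.467).

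Among the 6 genes of mannose 6-phosphate sorting, *Igf2r* encodes the large receptor that carries lysosomal enzymes from the Golgi. It was at 57.4, 78.0, 72.7 and 85.7 CPM in control, 45.9, 47.9, 64.3 and 46.3 in XBP1ΔDC and 51.6, 55.2 and 49.9 in XBP1ΔDCIRE1truncDC pools. XBP1ΔDC pool 3 stood above the other XBP1ΔDC pools and inside the control range. The log2 fold change in XBP1ΔDC was -0.52 (95% interval -0.82 to -0.23, edgeR adjusted p = 0.151), and without that pool it was -0.65 (edgeR adjusted p = 0.0407). In XBP1ΔDCIRE1truncDC it was -0.49 (95% interval -0.81 to -0.17, edgeR adjusted p = 0.228). *M6pr*, the smaller receptor, was at 551 ± 16.4 CPM in control and 579 ± 15.1 CPM in XBP1ΔDC pools.

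**Figure D4:**
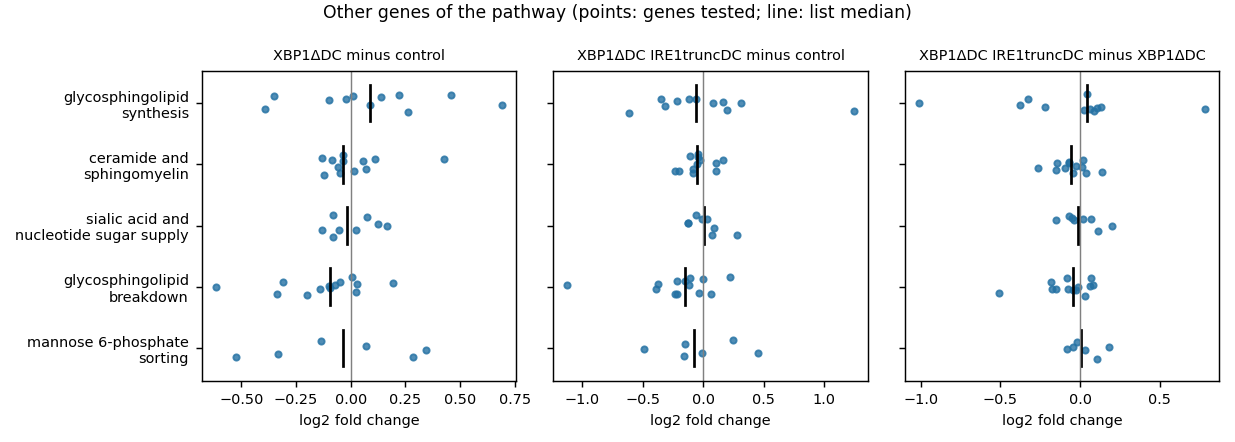
Log2 fold change (x axis) of the 50 other pathway genes tested, one point a gene, by list and comparison, with each list's median as a vertical line. The x axes of the panels differ in range. No point had an adjusted p under 0.05 in edgeR's test.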

How the data were processed

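RNA-seq was analysed from 11 sorted cDC1 pools grouped by the genotype in the sample labels. The authors amplified RNA with SMART-seq v4, sequenced single ends, and used FastQC 0.11.8, Trimmomatic 0.39 and STAR 2.7.3a. They deposited counts per gene from HTSeqCount without normalization, and the submitters' processing notes name mm10. The annotation and the strand setting are not given in the sources used here, so reads of overlapping genes cannot be told apart. A second table, of values normalized by the authors with limma 3.42.2, was not used here.

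Of the table, genes with over 1 CPM in 4 or more pools were fitted with edgeR 4.0.16 in R 4.3.3 (TMM, quasi-likelihood, 3 groups, common dispersion 0.0473, prior degrees of freedom 4.68). The standard error is the size of the log2 fold change over the square root of F, and intervals are at 95%. Within groups no pool was a copy of another, since the chi-square of counts divided by its degrees of freedom was 21.2 to 67.2. Alternatives used DESeq2 1.42.0, limma 3.58.1, other scalings and filters, a replicate block, marker covariates and leaving out each pool. Figures and sequences used python 3.11.15 with pandas 2.3.3, numpy 2.4.6 and matplotlib 3.10.9. Lengths, positions and transcripts are from GENCODE vM21 on GRCm38, the build of mm10, and promoter windows from RefSeq.

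The members and lists were chosen with earlier results of these data known. A rule set which genes besides the members could be named. It took the 2 pathway genes per list with the smallest p in XBP1ΔDC against control and in the direct comparison. It also took called pathway genes, *Ctsa*, the targeted genes, markers and the 3 genes most like *St3gal5* and *Gm2a*. Only some of the pathway genes it picked are named in the text, and *B4galnt1* was named outside the rule. The stem rule, the count of pools that do not overlap, the fold limit under other settings, and the alternatives for genes that are no members were chosen after seeing the data. Protein sequences were not used here. A few pathway genes fixed in the lists are not reported here, for a reason unrelated to their values, and were left out after counts and medians had been computed, so these describe the shortened lists only.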

Additional observations from a re-analysis of the deposited data

Results flagged for a closer look

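In groups of 4 pools, 2 values lay far from the rest of their group, with a gap to the nearest pool that takes more of the group's range than Dixon's 95% critical value. *Degs1*, which encodes dihydroceramide desaturase, was at 135.3 CPM in control pool 4. *Igf2r* was at 64.3 CPM in XBP1ΔDC pool 3. Neither is among the 8 genes of ganglioside synthesis and breakdown. Chance alone marks about 1 in 20 such groups.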

How the results depend on the processing

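In XBP1ΔDC against control, the fall of *St3gal5*, *Gm2a* and *Psap* was called in 23 of 23 other settings, with adjusted p up to 0.0161, 0.00821 and 0.0396. The count of members called there was 3 in each. In XBP1ΔDCIRE1truncDC against control it was 0, and 1 (*Psap*) with DESeq2, upper-quartile factors or macrophage markers as a covariate, and 4 when pools that do not overlap counted as called. In the direct comparison it was 0, and 2 (*Gm2a* and *St3gal5*) with DESeq2 and 3 by pools that do not overlap. It was 0 in both of these comparisons whichever pool was left out. Pathway genes called in XBP1ΔDC numbered 1 (*Igf2r*) with DESeq2, and 0 to 1 when a pool was left out (1 without XBP1ΔDC pool 3). With macrophage markers as a covariate, *Igf2r* in XBP1ΔDC came to -0.66 (edgeR adjusted p = 0.0250). *Ugcg* in XBP1ΔDCIRE1truncDC against control turned from -0.01 to 0.015 with melanoma markers as a covariate, and ran from -0.14 to 0.10 when a pool was left out (0.023, 0.0016, 0.016 and 0.10 without control pools 2, 3 and 4 and XBP1ΔDCIRE1truncDC pool 2). *B4galt5* there turned to -0.0097 with melanoma markers as a covariate. The cause was not tested.

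The deviations of same-numbered pools from their group means had mean correlations of 0.098, 0.0035 and -0.22 in the 3 comparisons. Pairs with different numbers had means of -0.033, -0.0012 and 0.074. Same-numbered pairs ran from 0.042 to 0.13, -0.020 to 0.027 and -0.26 to -0.14 in the same order. With a replicate block, the members called were 3, 0 and 0, and pathway genes called were 0 in each, so the block changed no count. *St3gal5*, *Gm2a* and *Psap* in XBP1ΔDC then had log2 fold changes of -0.59, -0.71 and -0.34. Other scalings moved the median of all genes by at most 0.033. *Neu1*, with 428 to 761 counts a pool, is the member with the least depth.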
